A study of Mus musculus with 8 samples.

Results

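The genes described here mark oligodendrocytes, the cells that make myelin in the brain, and the cells they come from. A set of 38 symbols was matched to the deposited count table through GENCODE vM21, and all 38 were found among its 39017 Ensembl genes. They were sorted by stage into 23 genes of mature oligodendrocytes and myelin, 5 transcription regulators of the lineage, 4 genes of committed or newly formed oligodendrocytes and 6 genes of the precursors. The libraries hold RNA from mouse hippocampus obtained by translating ribosome affinity purification (TRAP), in which ribosomes carrying EGFP-tagged L10 are pulled down with the RNA on them. All mice carried CCK cre and L10-EGFP, so the tag marks cells with present or past expression of cholecystokinin (Cck). Mice of the 5 conditional knockout (cKO) libraries were SMARCA3 fl/fl as well, and those of the 3 wild-type (WT) libraries were littermates that were not. SMARCA3, a chromatin remodeller, is encoded by Hltf. Each library pools 4 hippocampi, and the labels give neither age nor how pools relate to each other, so the p-values measure the spread between these pools.

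Oligodendrocyte precursors carry the receptor PDGFRA and the proteoglycan NG2, divide through adult life and mature through a committed stage marked by GPR17, ENPP6 and BCAS1. The factors OLIG1, OLIG2 and SOX10 act along the lineage, and MYRF switches on the myelin genes at its end. Mature cells wrap axons in myelin, a membrane rich in galactolipids and held together by proteins such as MBP and MOBP. Oligodendrocytes are not the cells in which a CCK driver is meant to place the tag. Input RNA was not analysed here, so enrichment or depletion by the pull-down could not be computed, and fewer cells of a type and less RNA per cell cannot be told apart.

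Total counts ran from 31760155 to 61823651 per library. Hltf was at 13.7, 8.39 and 9.87 CPM (counts per 1000000 counts of a library, with totals scaled by the trimmed-mean method, TMM) in WT 1, 2 and 3. It was at 5.10, 4.49, 4.21 and 2.83 CPM in cKO 1 to 4 and at 11.4 CPM in the library labelled cKO 5, which goes against its label. That library also stood apart in complexity: of the genes with a mean of at least 1 CPM, 54 had no count there, against 19 in cKO 4, 13 in WT 1 and 3 or 4 in each of the other libraries.

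The lineage genes were scarce in the pull-down beside neuronal genes. Levels between genes are given per length, as mean CPM per kilobase of merged exons over the 8 libraries. The median was 0.601 for the 23 mature genes, 0.432 for the 5 regulators, 0.0477 for the 4 committed genes and 0.244 for the 6 precursor genes. It was 61.3 for 14 neuronal markers and 3.33 for all 17654 genes tested. Astrocyte markers (12 genes) had a median of 0.402, microglia markers (12 genes) 0.0961 and vessel markers (12 genes) 0.0702 on the same scale. Among the neuronal markers, Cck itself was at 472 and Snap25, which encodes a synaptic fusion protein, at 2646.

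**Figure D1:**
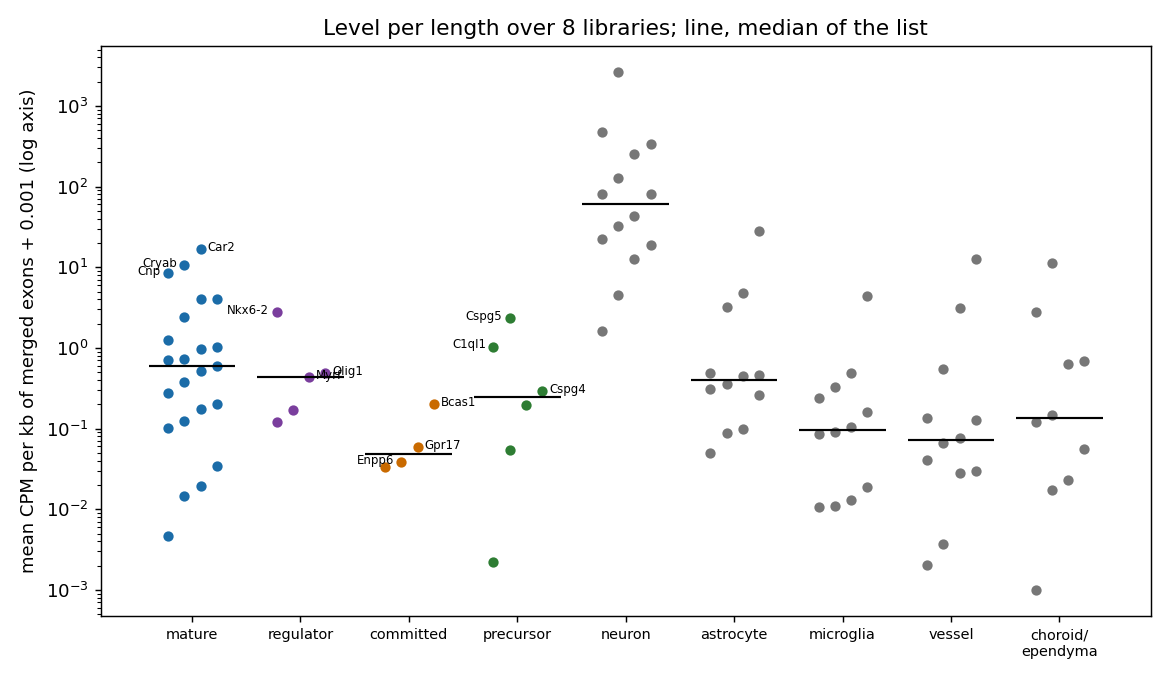
Mean CPM per kilobase of merged exons over 8 libraries, plus 0.001, on a log axis, for each gene (point) of the 4 lineage stages (colours) and of 5 marker lists of other cell types (grey); the line is the median of the list and the 3 highest lineage genes of each stage are named. The lineage medians, 0.0477 to 0.601, lie far under the neuronal median of 61.3.

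Within the mature list the levels spanned a wide range. Car2, which encodes carbonic anhydrase 2, was at 16.8 CPM per kilobase, Cryab, a small heat shock protein gene, at 10.7 and Cnp, the gene of a myelin phosphodiesterase, at 8.51. Mbp and the tetraspanin gene Tspan2 were next, at 4.00 and 4.02, and did not differ beyond their spread. Mobp was at 1.02 and Mog, the gene of a glycoprotein on the outer face of myelin, at 0.202, while Mag, which encodes a glycoprotein of the membrane facing the axon, was at 0.0338, lower than all but 0.565% of the genes tested. The genes at the top of this order are not confined to oligodendrocytes: the Mbp locus, for example, also makes Golli transcripts that neurons use, and counts per gene do not separate its transcripts. Of the precursor genes, Cspg5, a proteoglycan gene that neurons also express, was highest at 2.34 CPM per kilobase, against 0.291 for Cspg4, which encodes NG2, and 0.0525 for Pdgfra. Among the regulators, Nkx6-2, which encodes a homeodomain factor, was highest at 2.79 CPM per kilobase, and Sox10 lowest at 0.120. Nkx6-2 is uncertain, since 12.9% of its exon bases overlap Inpp5a on the opposite strand, at 13.0 to 21.7 CPM.

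Comparing cKO with WT asks whether deleting SMARCA3 in CCK cells goes with other levels of these RNAs in the pull-down. A total of 33 of the 38 genes had enough counts to be tested, and none passed in edgeR's quasi-likelihood test at a Benjamini-Hochberg adjusted p under 0.05. Over all genes tested, 0.00% were called. At an unadjusted p under 0.05, 4 of the 33 genes were higher in cKO (12.1%, against 5.02% of all genes tested) and 0 were lower (against 3.70%). These 4 were Gpr17, Mobp, Cspg4 and Ugt8a, with 1 in the committed, 2 in the mature and 1 in the precursor list. Gpr17 passed the filter, about 0.21 CPM in at least 3 libraries, through cKO libraries alone, so it had to be higher in cKO to be tested. Without it, 3 of the other 32 genes had such a p, 25 lay above 0 and the median was 0.35. DESeq2 also placed 4 higher at an unadjusted p under 0.05 (against 6.23% of all genes) and called 0 of the 9 that received an adjusted p, where 0.639% of the 10801 genes with one were called higher. The limma-voom fit called 0 of 33, against 0.0227% of all genes. The fitted log2 fold change lay above 0 in 26 of 33 genes (78.8%, against 53.0% of all genes), with a median of 0.42 against 0.02 over all genes tested. With no filter on low counts all 38 genes were fitted, 30 lay above 0 (against 53.8% of all genes fitted) and the median was 0.51 (against 0.04). The genes and their stages were chosen with earlier results of these data known, so these shares and medians are not independent of that choice. In simulated counts with the fitted dispersions, changes were given only to genes with a mean of at least 1 CPM. There edgeR recovered 22 of 50 genes given a change of factor 2, and 40 of 50 given factor 4. It tested 17264 genes, with 8 false calls. Scarcer genes, such as Mog, Mag and Olig2, were not given a change, so recovery at their level is not known.

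**Figure D2:**
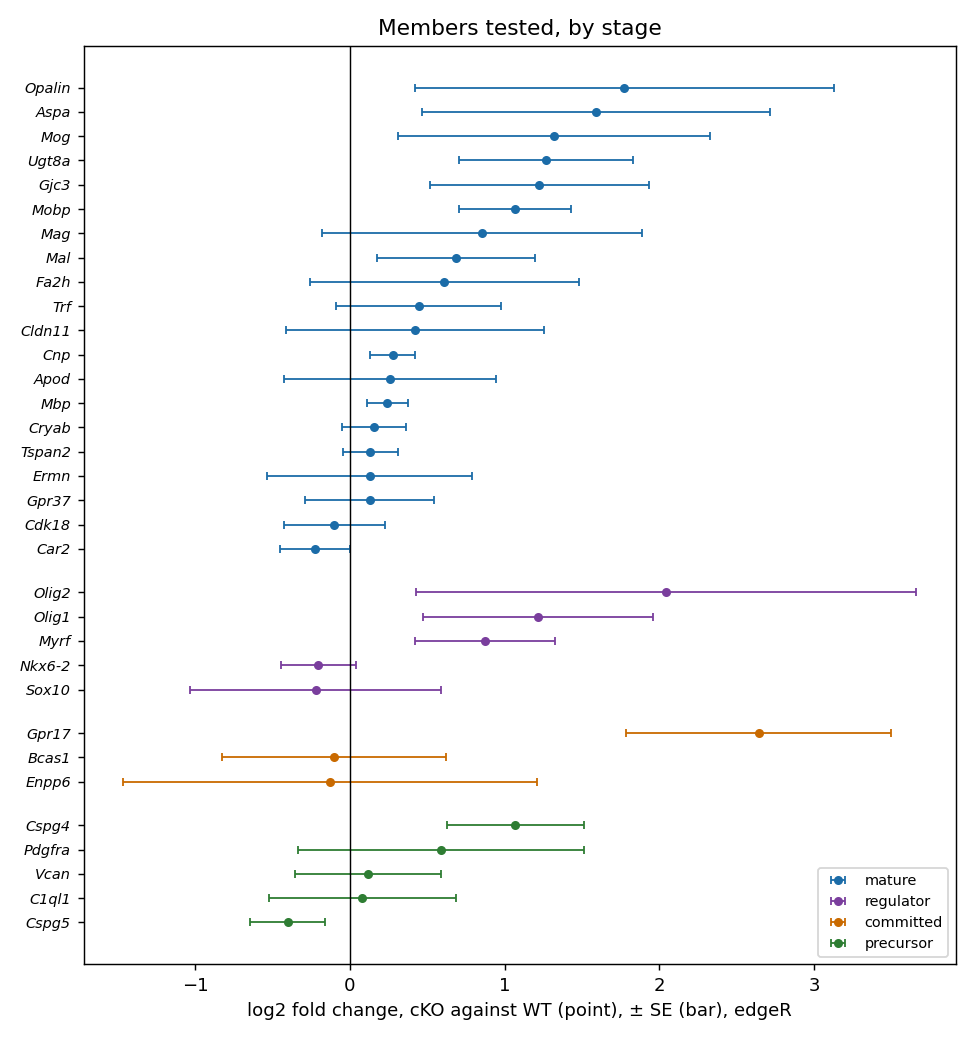
Log2 fold change of cKO against WT from edgeR (point) with its standard error (bar) for the 33 genes tested, coloured and grouped by stage. Of the 20 mature genes 18 lie above 0, and the standard errors run from 0.13 for Mbp to 1.61 for Olig2.

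The mature stage, a list chosen like the others with earlier results of these data known, had the highest share of genes above 0. Of its 20 tested genes 18 had a log2 fold change above 0, from 0.13 to 1.77, the value of Opalin, and 2 lay below, Cdk18 at -0.10 and Car2 at -0.22. The median was 0.43, and 0.25 over the 14 genes with at least 1 CPM in 3 libraries. In each of cKO 1 to 4, 10 of the 20 genes lay above all 3 WT libraries, and in the library labelled cKO 5 it was 9. The matching shares over all genes tested were 28.3, 28.7, 28.5, 34.1 and 34.5%. Without WT 2 the count of lineage genes with an unadjusted p under 0.05 went from 4 to 0, and without WT 1 or cKO 1 to 2. The shares over all genes in these fits are not given here.

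Mobp (ENSMUSG00000032517, mm10 chromosome 9, 120149707 to 120181484), which encodes a basic protein of compact myelin, was at 5.85, 3.29 and 3.28 CPM in WT 1, 2 and 3. The knockout values were 7.51, 5.40, 6.52 and 14.5 CPM in cKO 1 to 4 and 9.32 CPM in the library labelled cKO 5. Every cKO library except cKO 2 lay above WT 1, the highest WT library, and cKO 4 lay highest of all. The WT mean was 4.14 ± 1.48 CPM (SD, n = 3) and the cKO mean 8.65 ± 3.57 CPM (SD, n = 5). For Mobp the fit gave a log2 fold change of 1.07 (SE 0.36), an edgeR adjusted p of 0.499, an unadjusted p of 0.0131 and an exact permutation p of 0.0536 (two-sided, 56 splits). Over the 6 libraries numbered 1 to 3 it was 0.64, more than 1.5 times smaller, and without WT 2 or WT 3 the unadjusted edgeR p was 0.0569 or 0.0575.

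Ugt8a (ENSMUSG00000032854, chromosome 3, 125865271 to 125938619) encodes the enzyme that makes galactosylceramide, the main lipid particular to myelin. It was at 1.06, 0.677 and 0.990 CPM in WT 1, 2 and 3. In cKO it was at 2.80, 1.69, 4.02 and 0.713 CPM in cKO 1 to 4 and 1.77 CPM in the library labelled cKO 5. The groups overlapped through cKO 4 alone, which lay within the WT range. The fitted log2 difference of Ugt8a was 1.27 (SE 0.56), its edgeR adjusted p 0.565, with an unadjusted p of 0.0446 and an exact permutation p of 0.125. The next enzyme gene of the same lipid class, Fa2h, whose product adds a hydroxyl group to the fatty acid, had a log2 fold change of 0.61 (SE 0.87) from 4 to 76 counts per library. Without cKO 4 the unadjusted edgeR p of Ugt8a was 0.00832, and without WT 1, WT 2, WT 3, cKO 1 or cKO 3 it lay between 0.0681 and 0.131.

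The sequences upstream of Mobp, Ugt8a and Cspg4 are shown as context for 3 of the 4 genes with an unadjusted p under 0.05; that of Gpr17 is not shown here. They come from RefSeq (GRCm38.p6), run 5′ to 3′ on the strand of the gene up to the gene's start in RefSeq or GENCODE, whichever came first, and have capitals where ACAAAG, a core that SOX factors recognise, or its reverse complement CTTTGT occurs.
Mobp, chr9:120149492-120149706, plus strand: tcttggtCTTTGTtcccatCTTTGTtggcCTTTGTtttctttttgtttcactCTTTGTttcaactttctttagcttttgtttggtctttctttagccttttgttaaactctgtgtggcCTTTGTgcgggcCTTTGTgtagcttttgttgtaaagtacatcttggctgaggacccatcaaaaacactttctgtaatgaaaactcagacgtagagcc
Ugt8a, chr3:125938653-125938902, minus strand: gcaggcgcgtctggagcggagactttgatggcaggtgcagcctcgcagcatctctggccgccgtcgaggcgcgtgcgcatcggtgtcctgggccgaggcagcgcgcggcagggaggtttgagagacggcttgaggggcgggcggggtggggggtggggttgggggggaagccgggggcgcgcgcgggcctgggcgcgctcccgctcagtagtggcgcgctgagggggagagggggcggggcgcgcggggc
Cspg4, chr9:56864854-56865032, plus strand: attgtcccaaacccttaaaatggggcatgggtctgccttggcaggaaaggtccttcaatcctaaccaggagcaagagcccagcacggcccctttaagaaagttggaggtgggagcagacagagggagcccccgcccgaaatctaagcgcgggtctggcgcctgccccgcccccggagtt
The Mobp stretch held ACAAAG 6 times, all on the reverse strand, and the stretches of Ugt8a and Cspg4 held it 0 times. Over 250 bases upstream of the RefSeq start, ACAAAG on either strand was found in 16.5% of all 32851 windows and in 10 of 33 windows of the 26 lineage genes with an entry (30.3%). CAGCTG, an E-box of the kind bound by OLIG2, reads the same on both strands and does not overlap ACAAAG. It was in 13.0% of all windows and in 2 of the 33, and in none of the 3 stretches shown. These matches describe letters and were not set against binding data.

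Mbp and Cnp, the myelin genes with the most counts after Car2, differed between the groups by small fractions, with libraries close to each other. Mbp (ENSMUSG00000041607, chromosome 18, 82475146 to 82585637) had WT values of 27.2, 32.0 and 32.0 CPM in libraries 1, 2 and 3. The knockout values were 36.7, 34.4, 35.2 and 41.4 CPM in cKO 1 to 4 and 32.1 CPM in the library labelled cKO 5. Mbp had a log2 fold change of 0.24 (SE 0.13), an edgeR adjusted p of 0.638 and an exact permutation p of 0.0536. All cKO libraries lay above all WT libraries, but only by the difference between 32.03 CPM in WT 2 and 32.05 CPM in the library labelled cKO 5, and with upper-quartile scaling the groups overlapped.

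Cnp (ENSMUSG00000006782, chromosome 11, 100574904 to 100591729) had WT values of 28.0, 26.5 and 27.6 CPM in libraries 1, 2 and 3. In cKO it was at 38.1, 28.1, 36.0 and 35.4 CPM in cKO 1 to 4 and 28.1 CPM in the library labelled cKO 5. The libraries cKO 2 and the one labelled cKO 5 lay at the level of WT 1, and the other 3 lay higher. Cnp had a log2 fold change of 0.28 (SE 0.15), an edgeR adjusted p of 0.626 and an exact permutation p of 0.0357, and again the groups overlapped with upper-quartile scaling. The exons of Cnp overlap Dnajc7 on the opposite strand by 154 bases (4.23% of the exons), and whether the counting used strand is not stated. Counting Mbp, Cnp and Gpr17, 3 of 33 genes had groups that did not overlap with cKO higher (9.09%, or 2 without Gpr17, against 3.38% of all genes tested), and 0 with cKO lower (against 3.82%). Over the 6 libraries numbered 1 to 3, where 3 stand against 3, it was 8 genes, against 7.57% of all genes tested.

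**Figure D3:**
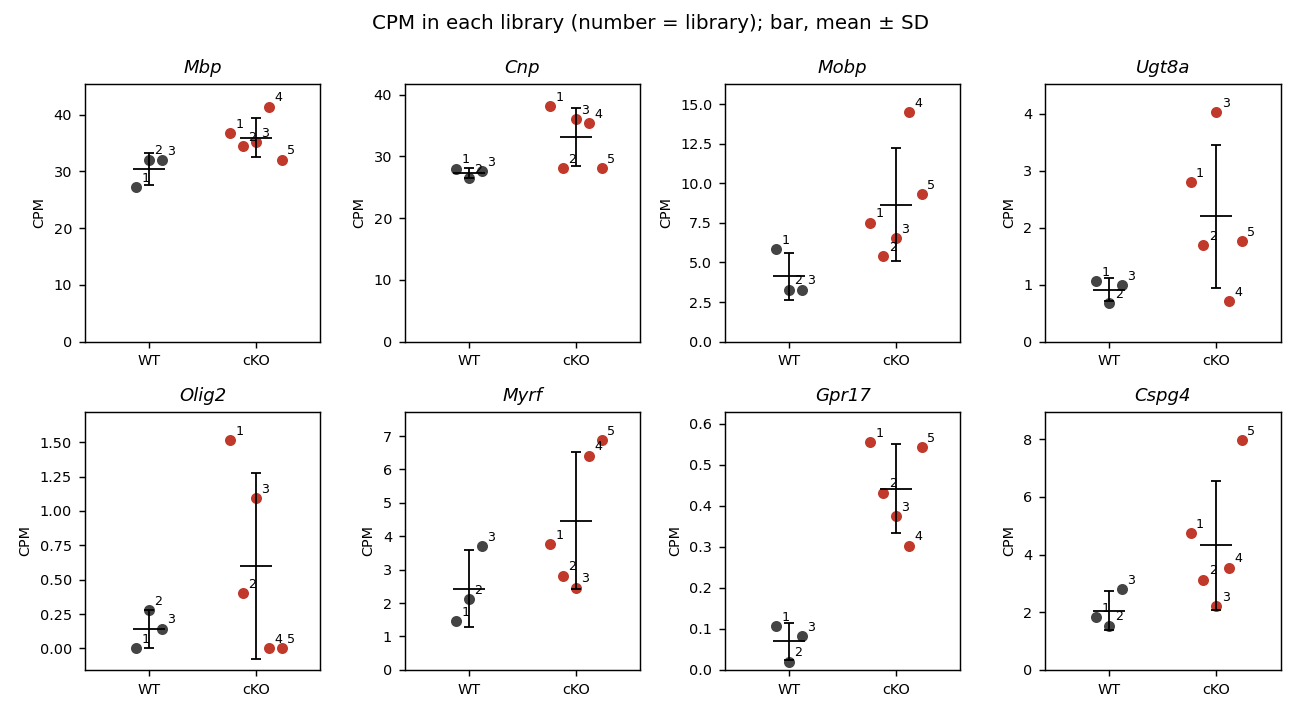
CPM of 8 lineage genes in each library, with the library number beside each point, WT in grey and cKO in red, and the mean ± SD as a bar. The library numbered 5 is the one labelled cKO whose Hltf level lies within the WT range. Gpr17 has all cKO points above all WT points, Ugt8a has cKO 4 within the WT range, and Olig2 has no count in cKO 4 or in the library labelled cKO 5.

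Mog and Mag sat near the floor of the counting. Mog was at 0.0798, 0.0996 and 0.350 CPM in WT 1, 2 and 3, at 0.306, 0.815, 0.125 and 0.0864 CPM in cKO 1 to 4 and at 0.896 CPM in the library labelled cKO 5. These values come from 3 to 51 counts per library, and cKO 1, 3 and 4 lay within the WT range (log2 fold change 1.32, SE 1.01, edgeR adjusted p 0.757, exact permutation p 0.304). Mag was at 0.239, 0.0199 and 0.0206 CPM in WT 1, 2 and 3, at 0.211, 0.160, 0.125 and 0.216 CPM in cKO 1 to 4 and at 0.109 CPM in the library labelled cKO 5, from 1 to 11 counts. Its highest library was WT 1, with a log2 fold change of 0.85 (SE 1.04, edgeR adjusted p 0.870, exact permutation p 0.161) that became 2.87 without WT 1 and 0.36 without WT 2 or WT 3.

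The other mature genes divided by level. Car2, Cryab, Tspan2 and Cdk18, a cyclin-dependent kinase gene, had log2 fold changes from -0.22 (SE 0.23) for Car2 to 0.16 (SE 0.21) for Cryab. Among the scarcer genes, Opalin, which encodes a membrane protein of mature oligodendrocytes, was at 1.77 (SE 1.35) and had no count in WT 1 and in the library labelled cKO 5. Aspa, the gene of the enzyme that splits N-acetylaspartate, was at 1.59 (SE 1.12), and cKO 4 alone reached 2.89 CPM. Its log2 fold change was 0.63 without cKO 4, 1.02 without WT 1, 2.71 without WT 2 and 0.42 over the 6 libraries numbered 1 to 3. Gjc3, a connexin gene, was at 1.23 (SE 0.71), with 7.02 CPM in cKO 4 and 0.239 CPM in WT 2, and at 0.71 without WT 2. Mal, which encodes a proteolipid, was at 0.69 (SE 0.51). Trf, Cldn11 and Apod, the genes of transferrin, a tight-junction protein of myelin and apolipoprotein D, lay between 0.26 and 0.45. Trf shares 63.5% of its exon bases with Gm20425 on the same strand, so its counts are uncertain. Ermn, whose product binds the cytoskeleton, and Gpr37, a receptor gene, were both at 0.13. Gjb1, Hapln2 and Ppp1r14a were not tested, with at most 1, 5 and 6 counts in a library.

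The regulators had fold changes of both signs, 3 of 5 above 0, with a median of 0.87. Olig2 (log2 fold change 2.04, SE 1.61, edgeR adjusted p 0.766, exact permutation p 0.500) was at 0, 0.279 and 0.144 CPM in WT 1, 2 and 3. In cKO 1, 2 and 3 it was at 1.51, 0.400 and 1.09 CPM, from 79, 25 and 35 counts. In cKO 4 and the library labelled cKO 5 it had no count, which allows at most 0.0648 and 0.0815 CPM (3 counts, for counting error only). Both groups thus held libraries with no count, and the 3 highest libraries were cKO 1, 3 and 2. With a covariate of astrocyte, microglia and vessel markers in the fit, the log2 fold change of Olig2 was 0.068. The covariate averages markers of which many are themselves scarce, and what it stands for was not tested.

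Olig1, its neighbour on chromosome 16, was at 0.239, 0.657 and 0.804 CPM in WT 1, 2 and 3, at 0.996, 0.975, 3.37 and 0.907 CPM in cKO 1 to 4 and at 0.407 CPM in the library labelled cKO 5. All of cKO 1 to 4 lay above the highest WT library, with cKO 3 far above the rest. The fit gave Olig1 a log2 fold change of 1.22 (SE 0.74), which was 0.53 without cKO 3, an edgeR adjusted p of 0.685 and an exact permutation p of 0.268. Sox10 was at 0.691, 0.339 and 0.186 CPM in WT 1, 2 and 3, at 0.364, 0.655, 0.437 and 0.130 CPM in cKO 1 to 4 and at 0.136 CPM in the library labelled cKO 5. The groups overlapped throughout, and the log2 fold change was -0.22 (SE 0.81, edgeR adjusted p 0.967, exact permutation p 0.679). Myrf, which encodes the factor that starts myelin gene expression, was at 1.46, 2.11 and 3.71 CPM in WT 1, 2 and 3, at 3.75, 2.81, 2.46 and 6.41 CPM in cKO 1 to 4 and at 6.87 CPM in the library labelled cKO 5. Its 2 highest libraries were cKO 4 and the one labelled cKO 5, where Olig2 had no count. Myrf had a log2 fold change of 0.87 (SE 0.45), an edgeR adjusted p of 0.619 and an exact permutation p of 0.143. Nkx6-2 was even across libraries, at 4.27 to 6.62 CPM, with a log2 fold change of -0.20 (SE 0.24).

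Of the committed genes, Gpr17 had the smallest p of the lineage in the main edgeR fit, and the other tested members had fold changes near 0. With no filter on low counts the unadjusted edgeR p was 0.0246 for Gpr17, against 0.00969 for Mobp. In DESeq2 the unadjusted p was 0.00584 for Gpr17 and 0.00319 for Mobp. Gpr17 passed the filter on low counts through cKO libraries alone. Its fold change, rate of counts, p-values and lack of overlap, under any scaling, all depend on that selection. Gpr17 (ENSMUSG00000052229, chromosome 18, 31942997 to 31949636) encodes a receptor carried by cells between precursor and oligodendrocyte. It was at 0.106, 0.0199 and 0.0825 CPM in WT 1, 2 and 3, which were 4, 1 and 4 counts. In the knockout it stood at 0.555, 0.432, 0.374 and 0.302 CPM in cKO 1 to 4 and 0.543 CPM in the library labelled cKO 5, from 29, 27, 12, 14 and 20 counts. All 5 cKO libraries lay above all 3 WT libraries under the 4 scalings tried (TMM, DESeq2's size factors, upper quartile and none). The rate of counts in cKO was 6.72 times that in WT (95% interval 3.40 to 15.1, exact, for counting error only, from 102 against 9 counts). This interval leaves out the spread between libraries, and the selection above applies to it too. The fit gave Gpr17 a log2 fold change of 2.64 (SE 0.86), an edgeR adjusted p of 0.499, an unadjusted p of 0.0102 and an exact permutation p of 0.0179, the smallest these libraries allow. Lims2, which overlaps Gpr17 on the opposite strand by 188 bases, was at 0.124 to 0.532 CPM in WT and 0.0272 to 0.624 CPM in cKO.

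Enpp6, a choline phosphodiesterase gene of newly formed oligodendrocytes, was at 0, 0.478 and 0.268 CPM in WT 1, 2 and 3. In cKO it was at 0.421, 0.0959, 0.592 and 0 CPM in cKO 1 to 4 and at 0.0543 CPM in the library labelled cKO 5. Bcas1 was at 1.65, 0.219 and 0.536 CPM in WT 1, 2 and 3, at 1.21, 0.352, 0.561 and 0.907 CPM in cKO 1 to 4 and at 0.679 CPM in the library labelled cKO 5. For both genes the groups overlapped throughout, with log2 fold changes of -0.13 (SE 1.34) for Enpp6 and -0.10 (SE 0.72) for Bcas1, edgeR adjusted p of 0.987 and 0.981 and exact permutation p of 0.946 and 0.768. Neu4, a sialidase gene with 0 to 21 counts per library, was not tested.

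Among the precursor genes, Cspg4 and Cspg5, both of which encode chondroitin sulfate proteoglycans, had opposite signs. Cspg4 (ENSMUSG00000032911, chromosome 9, 56865033 to 56899870) had WT values of 1.83, 1.53 and 2.80 CPM in libraries 1, 2 and 3. The knockout values were 4.75, 3.13, 2.21 and 3.54 CPM in cKO 1 to 4 and 7.96 CPM in the library labelled cKO 5. Only cKO 3 lay within the WT range. Cspg4 had a log2 fold change of 1.07 (SE 0.44), an edgeR adjusted p of 0.551, an unadjusted p of 0.0341 and an exact permutation p of 0.0893. It was 0.72 without the library labelled cKO 5, and without that library, WT 1, WT 2 or cKO 1 the unadjusted edgeR p lay between 0.0609 and 0.117. With the GC and length correction it was 0.78 (unadjusted edgeR p 0.0876). Cspg4 is also a marker of pericytes, and other pericyte genes differed from each other. Pdgfrb, highest in the library labelled cKO 5 at 2.17 CPM, had a WT mean of 0.479 ± 0.496 CPM (SD, n = 3) and a cKO mean of 0.879 ± 0.765 CPM (SD, n = 5). Rgs5, which had more counts, was lowest in that library at 18.3 CPM, with a fitted log2 difference of -0.11 (SE 0.43). Kcnj8 had no count in 7 of 8 libraries.

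Pdgfra, the precursor receptor gene, was at 0.452, 0.538 and 0.206 CPM in WT 1, 2 and 3, at 0.785, 0.176, 1.15 and 0.842 CPM in cKO 1 to 4 and at 0.0543 CPM in the library labelled cKO 5. That library and cKO 2 lay below the WT range and the other 3 above it. For Pdgfra the log2 fold change was 0.59 (SE 0.92), beside an edgeR adjusted p of 0.902 and an exact permutation p of 0.946. Cspg5 had a log2 fold change of -0.40 (SE 0.24), Vcan, which encodes versican, 0.12 (SE 0.47), and C1ql1, which encodes a secreted C1q-like protein, 0.08 (SE 0.60). Matn4 had at most 1 count in a library and was not tested. The median over the 5 tested precursor genes was 0.12, and ran from 0.0078 (without WT 3) to 0.33 (without the library labelled cKO 5) when each library was left out.

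The lineage genes did not rank the libraries alike. Of the 33 genes, 9 were highest in cKO 4, among them Mobp, Aspa, Gjc3, Opalin, Trf and Apod, and 6 were lowest there alone, among them Ermn, Fa2h, Gpr37 and Sox10. The library labelled cKO 5 was highest for 4 genes and lowest alone for 7. Over all genes tested, cKO 4 was highest for 17.5% and lowest alone for 17.2%, and the library labelled cKO 5 for 22.4 and 22.8%. WT 2 and WT 3 were highest for 0 of the 33 genes, against 9.83 and 7.99% of all genes, and WT 1 for 6. Of the 33 genes, WT 1 had no count for 4, cKO 4 for 2 and the library labelled cKO 5 for 2, and every tested gene had a count in the other libraries.

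**Figure D4:**
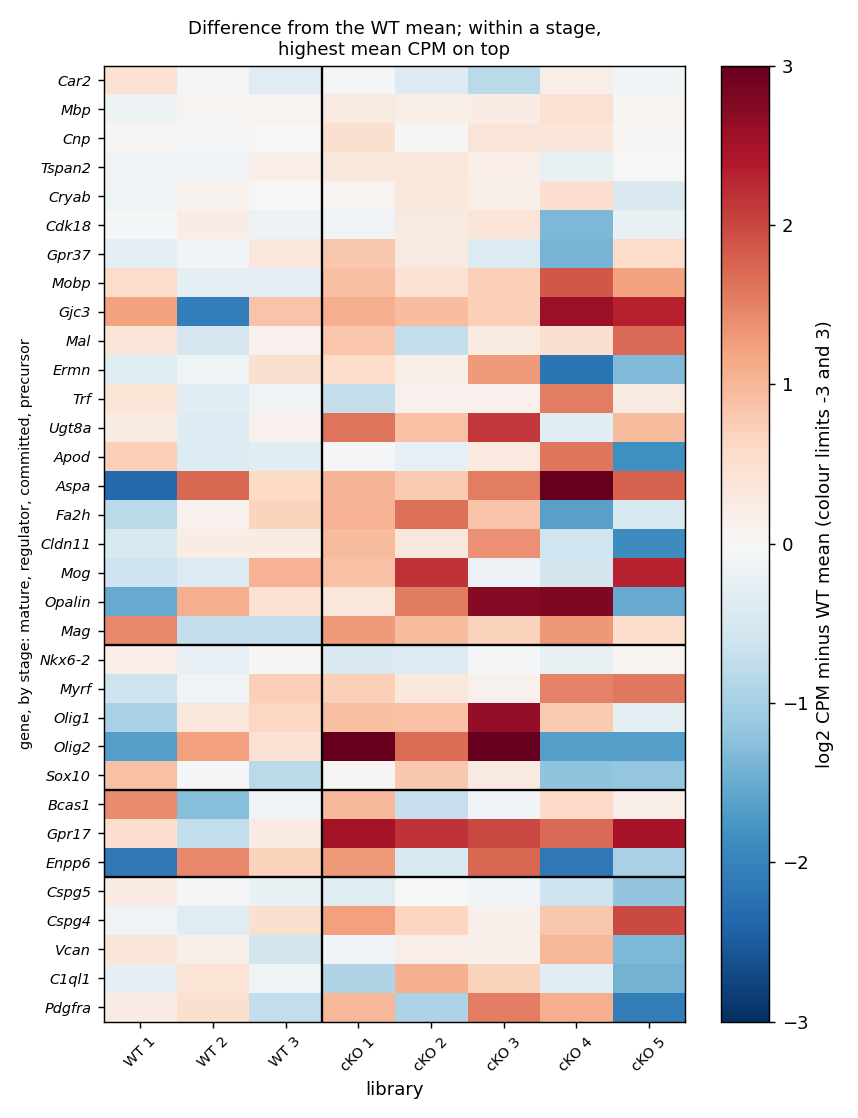
Log2 CPM minus the WT mean for the 33 genes tested (rows, by stage, highest mean CPM on top within a stage) in the 8 libraries (columns); red is above and blue below the WT mean, with colours limited to 3 in either direction. Abundant genes such as Mbp, Cnp and Tspan2 are pale in every library. Olig2 and Opalin switch between deep red and blue, also within the cKO group, while Aspa is blue only in WT 1.

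This unevenness went with the level of a gene. The 7 genes with a mean of at least 10 CPM (Car2, Cdk18, Cnp, Cryab, Cspg5, Mbp and Tspan2) had coefficients of variation over the 8 libraries of 12.3 to 29.7%, and log2 fold changes between -0.40 and 0.28. The other 26 tested genes had coefficients of 16.3 to 133% and log2 fold changes between -0.22 and 2.64, with 22 above 0. For Olig2 the coefficient was 133%, where counting error alone gives 22.4%, and 92.3% of 2395 genes within a factor of 2 of its CPM had a smaller one. For Mobp it was 52.5% against 5.66% from counting error, above 93.0% of 3896 genes of similar CPM. The level of 10 CPM was chosen after the values were seen, so this is a description.

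Summed over the stage, 6 abundant genes (Mbp, Cnp, Car2, Cryab, Tspan2 and Cdk18) made up 78.4 to 88.8% of the CPM of the 23 mature genes. The full sum was at 180, 166 and 165 CPM in WT 1, 2 and 3, at 203, 179, 182 and 208 CPM in cKO 1 to 4 and at 179 CPM in the library labelled cKO 5, so the groups overlapped. The other 17 genes, a remainder also defined after their levels were seen, summed to 24.5, 18.5 and 25.2 CPM in WT 1, 2 and 3. In cKO they summed to 37.0, 27.7, 32.7 and 40.6 CPM in cKO 1 to 4 and to 38.6 CPM in the library labelled cKO 5. These sums did not overlap, but the remainder was picked from the same values. No share over other sets of genes is given beside it, so this is a description and not a test. The precursor sum ran from 30.0 to 39.7 CPM in WT and from 21.7 to 37.1 CPM in cKO.

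Markers of other cell types in the same libraries stood as follows. Some of them entered the covariate fit, but their part in the values above was not tested. Of 6 tested choroid plexus and ependymal markers out of 10, 5 had log2 fold changes above 0 with a median of 0.88. Their summed level was 35.0 to 46.3 CPM in WT and 36.1 to 87.4 CPM in cKO, with the highest sums in cKO 4 (67.7 CPM) and the library labelled cKO 5 (87.4 CPM), and Tmem212 had no count in any library. Astrocyte markers (11 of 12 tested, 7 above 0) had a median of 0.12 and sums of 365 to 500 CPM in WT and 341 to 557 CPM in cKO. Microglia markers (7 of 12 tested, 3 above 0) had a median of -0.09 and sums of 10.7 to 17.9 CPM in WT and 7.90 to 15.1 CPM in cKO, and C1qa had no count in 7 of 8 libraries. Vessel markers (7 of 12 tested, 4 above 0) had a median of 0.07, with sums of 61.6 to 81.2 CPM in WT and 27.6 to 94.7 CPM in cKO, and Cldn5 had no count in 7 libraries. Fibroblast markers (4 of 8 tested, 2 above 0), which matter here because fibroblasts also express Pdgfra, had a median of 0.09 and sums of 57.6 to 73.9 CPM in WT and 41.6 to 108 CPM in cKO. Neuronal markers (14 of 14 tested, 7 above 0) had a median of 0.02 and sums of 22377 to 26668 CPM in WT and 19722 to 24771 CPM in cKO. One of them was Slc17a7, the vesicular glutamate transporter gene of excitatory neurons. It was at 333 to 365 CPM in WT and 439 to 548 CPM in cKO, with no overlap. No overlap with cKO higher was found for 3.38% of all genes tested. Slc17a7 had a log2 fold change of 0.49 (SE 0.10, adjusted p 0.470 in edgeR and 0.00604 in DESeq2), and is named after its values were seen. Of 6 genes of peripheral myelin, made by Schwann cells, 2 were tested, with log2 fold changes of -0.17 for Egr2 and 0.05 for Prx.

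Further oligodendrocyte genes outside the 38 were counted in the same way, beside a median of 0.02 over all genes. Of 24 further genes of mature cells, 20 were tested, 11 lay above 0 and the median was 0.12; at an unadjusted p under 0.05, 1 was higher (Efnb3, an ephrin gene, 0.32, SE 0.13) and 1 lower (Sec11c, a signal peptidase gene, -0.37, SE 0.16). Slc44a1, a choline transporter gene, was at 0.23 (SE 0.11) and Pmp22, the gene of a myelin protein, at 0.60 (SE 0.30). Of 10 further committed-stage genes tested, 5 lay above 0 with a median of 0.00, and Nfasc, the gene of the adhesion protein neurofascin, had the smallest p (0.45, SE 0.13, unadjusted edgeR p 0.00634). Neurons make neurofascin too. Nfasc had a WT mean of 174 ± 12.9 CPM (SD, n = 3) and a cKO mean of 239 ± 41.2 CPM (SD, n = 5). Its groups did not overlap, as was so with cKO higher for 3.38% of all genes tested. Sirt2, Mycl and Itpr2 were at 0.24, 0.30 and 0.42.

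Of 14 further precursor genes tested, 11 lay above 0 with a median of 0.17. At an unadjusted p under 0.05, Tnr, which encodes the matrix protein tenascin-R, was higher (0.40, SE 0.17) and Megf11, a cell-surface protein gene, lower (-0.41, SE 0.15). Ptprz1, a receptor phosphatase gene, was at 0.51 (SE 0.24). Of 10 further regulators tested, 5 lay above 0 with a median of 0.01, and Id2, an inhibitor of basic helix-loop-helix factors, was lower (-0.44, SE 0.15, unadjusted edgeR p 0.0136). Lingo1, Id4 and Zfp536 were at 0.25, 0.15 and -0.08. Of 12 genes of myelin lipid turnover, all tested, 8 lay above 0 with a median of 0.15 and 0 had an unadjusted p under 0.05; Nat8l, which makes N-acetylaspartate in neurons, was at 0.38 (SE 0.19), Elovl7 and Degs1 at 0.45 and -0.22 and Psap, the gene of prosaposin, at 0.13. None of the genes of these 5 lists passed edgeR's test at an adjusted p under 0.05, the smallest being 0.499. In these lists the groups did not overlap with cKO higher for Efnb3, Slc44a1 and Nfasc, and with cKO lower for Megf11 and Id2. The shares over all genes tested were 3.38% with cKO higher and 3.82% with cKO lower.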

How the data were processed

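RNA sequencing libraries from TRAP of mouse hippocampus (3 WT, 5 cKO) were analysed. The deposited table holds raw counts per Ensembl gene; per the submitters' processing notes, reads were aligned with STAR 2.5.3a to mm10 and counted with HTSeq. Annotation release, strandedness and filters are not given in the sources used here. Symbols, positions and exon lengths came from GENCODE vM21 (GRCm38, the same build) and matched 37693 genes (96.6%). Counts were tested in R 4.3.3 with edgeR 4.0.16 (TMM scaling, filterByExpr by group, robust quasi-likelihood fit of all 8 libraries, two-sided, Benjamini-Hochberg over 17654 genes), and fold changes of a gene are those of that fit. Alternatives used DESeq2 1.42.0, limma 3.58.1 (voom with quality weights), other scalings and filters, a GC and length correction, a covariate of astrocyte, microglia and vessel markers, and fewer libraries. The test was checked on simulated counts. Exact permutation tests compared mean log2 CPM (prior count 2) over 56 splits. Values in every library are given for 14 stage-defining genes and for any other with an unadjusted p under 0.05 or no overlap between groups; from each wider list up to 4 genes with the smallest p and a mean CPM of at least 1 are named. Values of some list genes are not reported here. Upstream sequences are RefSeq's. The 38 genes, their stages and all lists were chosen with earlier results of these data known. Figures were drawn with matplotlib 3.10.9.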

Additional observations from a re-analysis of the deposited data

Results flagged for a closer look

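In 4 of 38 sets of 5 cKO values examined (33 genes, 4 stage sums and Hltf), 1 library stood far from the other 4, each time on the high side. For independent, normally distributed values chance alone would flag about 1 in 20, or 1.9 here. CPM of scarce genes need not be distributed so, the sets share the same 5 libraries and the stage sums hold the genes. The value of 1.9 is therefore only a rough guide. Aspa in cKO 4 reached 2.89 CPM against 0.336 to 0.706 CPM in the rest of its group, a gap of 0.855 of the whole range. Trf in cKO 4 was at 4.06 CPM against 0.824 to 1.66 CPM, a gap of 0.743. Olig1 in cKO 3 was at 3.37 CPM against 0.407 to 0.996 CPM, a gap of 0.801. Hltf in the library labelled cKO 5 was at 11.4 CPM against 2.83 to 5.10 CPM, a gap of 0.737.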

How the results depend on the processing

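Over 20 alternatives, 642 fold changes of single genes were recomputed. Of these, 595 kept their sign and their side of the threshold, and 47, in 12 genes, changed sign. The cause was not tested. The smallest adjusted p of a lineage gene in the main edgeR fit was 0.499, so the side of the threshold had little room to change. The alternatives also share most or all of the libraries. No gene passed an adjusted p under 0.05 in edgeR under any of the alternatives. The count of genes higher at an unadjusted p under 0.05 ran from 0 (without WT 2) to 5 when each library was left out. The count with no overlap ran from 3 to 5 then. It was 1 with upper-quartile scaling (against 3.31% of all genes tested) and 8 over the 6 libraries numbered 1 to 3 (against 7.57%). For the fits with a library left out, the covariate or the block, shares over all genes are not given here. Counts from those fits are therefore no result about the lineage. The standard errors of Mog, Mag, Aspa, Opalin, Olig2 and Enpp6 exceed 1.

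Leaving out each library moved the log2 fold change from -0.55 to 0.97 for Bcas1, -0.21 to 0.33 for Vcan, -0.37 to 0.73 for Apod, -0.24 to 0.097 for Cdk18, -0.36 to 0.41 for Ermn, -0.39 to 0.015 for Car2, -0.033 to 0.68 for Trf, -0.59 to 0.39 for Sox10, -0.79 to 0.75 for Enpp6, -0.094 to 0.35 for Gpr37 and -0.32 to 0.33 for C1ql1. With limma-voom it was 0.33 for Bcas1, 0.037 for Cdk18, 0.33 for Sox10, 0.12 for Enpp6 and -0.062 for Gpr37. The GC and length correction gave -0.11 for C1ql1 and 0.057 for the precursor median, which was 0.35 with no filter and 0.47 over 6 libraries. The covariate of other cell types gave -0.13 for Ermn, -0.0048 for Cldn11 and -0.038 for C1ql1, took Olig2 from 2.04 to 0.068, and counted 1 gene as lower at an unadjusted p under 0.05.

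Libraries with the same replicate number did not deviate alike from their group means: the correlations over 7548 genes were -0.21, 0.0576 and 0.0796. With so few libraries, these values cannot show whether the pools were paired. Over 6 libraries without the block, the log2 fold change was -0.081 for Apod, 0.18 for Cdk18, -0.14 for Trf, 0.27 for Sox10 and 0.51 for Enpp6. With the replicate block it was 0.066 for Bcas1, -0.0035 for Apod, 0.18 for Cdk18, -0.15 for Trf, 0.40 for Sox10 and 0.87 for Enpp6. At an unadjusted p under 0.05 the block placed 5 genes above and 1 below WT, and 0 passed adjustment. The matching shares over all genes are not given here. The block with the GC and length correction also placed 1 below, and gave 0.073 for Bcas1, 0.084 for Cdk18, -0.16 for Trf, 0.30 for Sox10 and 0.91 for Enpp6.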
